A study of Mus musculus with 10 samples.

Results

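Carbonic anhydrases and the transporters that move bicarbonate, protons or lactate across the plasma membrane were examined in cultured WT31 and WT31_P5IV melanoma cells. The members were 9 genes chosen by symbol, of 55385 genes in the deposited tables: the carbonic anhydrases Car2, Car9, Car12, Car13 and Car14, the monocarboxylate transporters Slc16a1 and Slc16a3, and the bicarbonate transporters Slc4a7 and Slc4a2. They were chosen with the difference between WT31 and WT31_P5IV already known. That difference is therefore given as a description, and the calls counted for members are not tests of it. WT31 is a murine melanoma line from Tyr::NrasQ61K/°; INK4a-/- mice, in which the tyrosinase promoter drives the mutant Nras transgene in pigment cells. WT31_P5IV was derived from WT31 by 5 rounds of hepatic passaging, each started by injection into the tail vein, so that both share this genetic origin. Both were grown untreated in RPMI with fetal calf serum, and RNA was taken from sub-confluent cultures, with 5 libraries per group. All libraries of a group came from 1 line or subline, so the spread between them is that of cultures and not of independently passaged lines.

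Carbonic anhydrases interconvert carbon dioxide and water with bicarbonate and a proton. Car2 and Car13 encode cytosolic enzymes, while Car9, Car12 and Car14 encode enzymes that are anchored in the membrane with the catalytic domain outside the cell. Slc16a1 (MCT1) and Slc16a3 (MCT4) move lactate together with a proton, Slc4a7 (NBCn1) brings bicarbonate into the cell with sodium, and Slc4a2 (AE2) exchanges bicarbonate for chloride. Tumor cells with high glycolysis use such proteins, apart from bicarbonate exporters such as Slc4a2, to keep the cytosol alkaline while acid leaves the cell. Car9, Car12 and Slc16a3 are known targets of the hypoxia-inducible factors.

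The 2 cytosolic enzymes were lower and the 3 membrane enzymes were higher in WT31_P5IV than in WT31. Slc16a1 and Slc4a2 were also higher, whereas the groups overlapped for Slc16a3 and Slc4a7. Of the 9 members, 8 passed the filter on low counts, and Car9 did not. Of these 8, 6 had an adjusted p under 0.05, 4 of them higher and 2 lower, where 68.5% of all 13620 tested genes had one, 34.6% higher and 33.9% lower. With an absolute log2 fold change of at least 1 in addition, 3 members remained (Car12, Car14 and Slc4a2), against 9.10% of all tested genes, 5.42% higher and 3.69% lower. In CPM (counts per 1000000 counts of the library, scaled by TMM), 7 of the 9 members had separate ranges in WT31 and WT31_P5IV, Car9 among them. This was so for 6 of the 8 tested members and for 54.1% of all tested genes. Of all calls 50.5% were higher and 49.5% lower, but 32.8% and 67.2% when log2(TPM + 1) was compared, with a shift of the median gene by -0.16. Since this contrast chose the members, nothing was read from these counts.

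**Figure D1:**
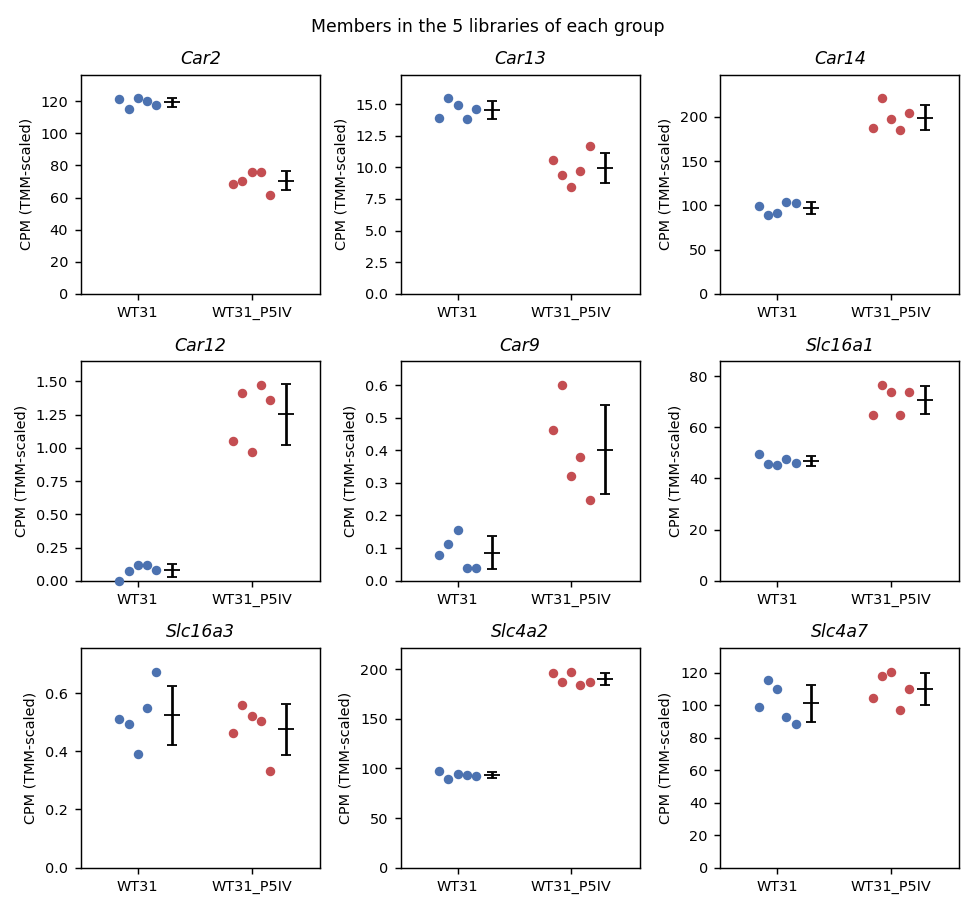
CPM (counts per 1000000 counts of the library, scaled by TMM) of each member in the 5 libraries of WT31 (blue) and WT31_P5IV (red), with the mean and SD in black; each panel has its own axis from 0. Car2 and Car13 lay lower and Car14, Car12, Car9, Slc16a1 and Slc4a2 lay higher in all WT31_P5IV libraries, while Slc16a3 and Slc4a7 overlapped.

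Car2 (ENSMUSG00000027562), the ubiquitous and fast cytosolic carbonic anhydrase, lies at chr3:14886273-14900770 on the plus strand of GRCm38. In WT31 it had 121, 115, 122, 120 and 118 CPM. In WT31_P5IV it had 68.5, 70.6, 76.1, 75.7 and 61.8 CPM. Every WT31_P5IV library was thus below every WT31 library. The means were 119 ± 2.80 and 70.5 ± 5.85 CPM (SD, n = 5 each), a log2 fold change of -0.76 (SE 0.05).

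Car13 (ENSMUSG00000027555), a second cytosolic enzyme, lies at chr3:14641727-14663002 on the same strand, 223271 bases before Car2. It was counted at 13.9, 15.5, 14.9, 13.8 and 14.6 CPM in WT31. In WT31_P5IV the values were 10.6, 9.39, 8.45, 9.69 and 11.6 CPM. Car13 was lower in every WT31_P5IV library, with a log2 fold change of -0.55 (SE 0.08). The ratio of Car13 to Car2 in TPM (a relative transcript number, which takes account of transcript length) overlapped between the groups, at 0.0843 ± 0.0061 in WT31 and 0.0934 ± 0.019 in WT31_P5IV (SD, n = 5 each). Car1 and Car3, which belong to the same gene cluster in the mouse, had at most 1 and 4 counts in any library.

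Car14 (ENSMUSG00000038526) encodes a membrane-anchored enzyme with an extracellular catalytic domain and lies at chr3:95897768-95904691 on the minus strand. WT31 libraries held 99.2, 89.1, 91.7, 103 and 102 CPM. WT31_P5IV libraries held 188, 221, 198, 185 and 204 CPM. The lowest WT31_P5IV library was far above the highest WT31 library. The means were 97.1 ± 6.35 and 199 ± 14.6 CPM (SD, n = 5 each), a log2 fold change of 1.04 (SE 0.06). Of the 31-base words of Car14 transcripts, 16.4% also occur in transcripts of Aph1a, a gamma-secretase subunit gene that overlaps Car14 on the other strand. Whether the counting used strand was not stated. Aph1a itself averaged 151 ± 12.4 CPM in WT31 against 158 ± 4.53 CPM in WT31_P5IV, without a call (adjusted p = 0.318, edgeR's quasi-likelihood test) and with the opposite sign in TPM (means of 96.0 and 88.8).

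Car12 (ENSMUSG00000032373) encodes a second membrane-anchored enzyme with its active site outside the cell and lies at chr9:66713686-66766845 on the plus strand. It was near the limit of detection in WT31, with 0, 2, 3, 3 and 2 counts. In WT31_P5IV it had 25, 33, 24, 35 and 33 counts. All WT31_P5IV libraries were above all WT31 libraries, and Car12 remained a rare transcript there, at 0.576 ± 0.144 TPM (SD, n = 5). Against a limit of 3 counts per WT31 library, it was at least 10.7-fold higher.

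Car9 (ENSMUSG00000028463), the hypoxia-inducible membrane enzyme, lies at chr4:43506966-43513729 on the plus strand. It had 2, 3, 4, 1 and 1 counts in WT31 and 11, 14, 8, 9 and 6 counts in WT31_P5IV. The groups did not overlap, but Car9 was below the filter and was not tested in the main fit. The summed counts, scaled to library size, gave a ratio of 4.66, with an exact binomial 95% interval of 2.39 to 9.96 that covers counting error only. Of its 31-base words, 7.41% are shared with other genes, most often with Gm12454, which overlaps it on the other strand.

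Cytosolic transcripts were the larger part of the members' carbonic anhydrases in WT31 and membrane-bound transcripts in WT31_P5IV. Summed TPM of the cytosolic Car2 and Car13 was 133 ± 5.46 in WT31 and 74.0 ± 4.75 in WT31_P5IV (SD, n = 5 each). Summed TPM of the membrane-bound Car14, Car12 and Car9 was 102 ± 3.49 in WT31 and 184 ± 13.1 in WT31_P5IV (SD, n = 5 each). Car14 made up nearly all of the latter sum in both groups, as Car12 and Car9 stayed under 1 TPM. The ratio of Car14 to Car2 in TPM was 0.811, 0.797, 0.784, 0.883 and 0.908 in WT31. It was 2.55, 3.10, 2.52, 2.29 and 3.17 in WT31_P5IV. Car2 was thus the higher of the pair in each WT31 library and Car14 in each WT31_P5IV library. Because both genes are read in the same library, this ratio does not depend on how libraries are scaled.

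Over 16 carbonic anhydrase genes in the tables, the cytosolic pair held 44.3% ± 1.42 of the summed TPM in WT31 and 23.0% ± 2.02 in WT31_P5IV (SD, n = 5 each). The membrane-bound Car14, Car12 and Car9 held 34.2% ± 1.21 in WT31 and 57.1% ± 2.46 in WT31_P5IV (SD, n = 5 each). Most of the rest was Car6, a secreted enzyme, with 19.6% ± 0.609 and 17.6% ± 0.571. The sum over all 16 genes moved less than the cytosolic and membrane-bound parts, from 300 ± 7.12 to 322 ± 10.3 TPM (SD, n = 5 each), though the groups did not overlap.

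**Figure D2:**
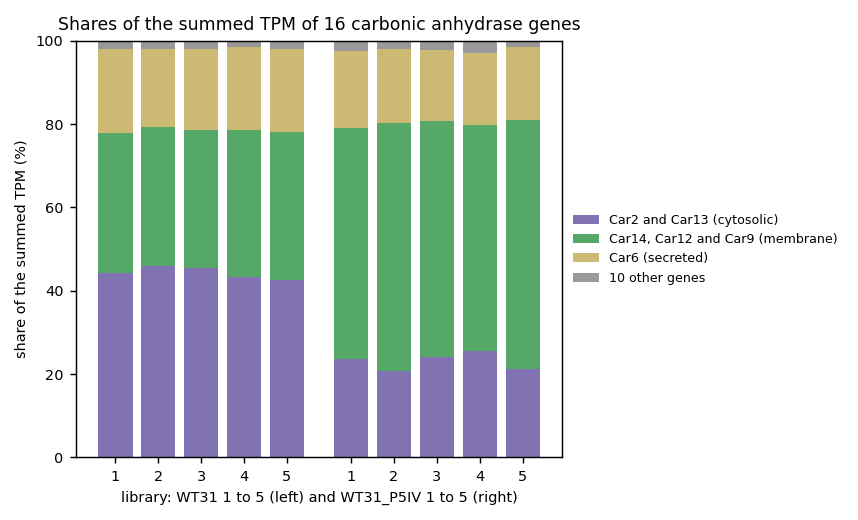
Share of each library's summed TPM of 16 carbonic anhydrase genes, in percent, for 5 WT31 libraries (left) and 5 WT31_P5IV libraries (right). The cytosolic share was between 42.6% and 45.8% in WT31 and between 20.7% and 25.5% in WT31_P5IV, and the share of Car14, Car12 and Car9 moved the other way.

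Slc16a1 (ENSMUSG00000032902), the widely expressed lactate and pyruvate transporter MCT1, lies at chr3:104638668-104658462 on the plus strand. It was counted at 49.5, 45.6, 45.3, 47.7 and 46.1 CPM in WT31. In WT31_P5IV the values were 64.8, 76.6, 73.8, 64.9 and 73.9 CPM. The groups were separate, with a log2 fold change of 0.60 (SE 0.05). Its annotation holds a single transcript, and none of its 31-base words occurs in another gene.

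Slc16a3 (ENSMUSG00000025161), the transporter MCT4 that exports lactate from glycolytic cells, lies at chr11:120948480-120960868 on the plus strand. It was rare in both groups, with 13, 13, 10, 14 and 17 counts in WT31 and 11, 13, 13, 12 and 8 counts in WT31_P5IV. The ranges overlapped, with a log2 fold change of -0.14 (SE 0.23). The summed counts gave a ratio of 0.909, with an exact binomial 95% interval of 0.627 to 1.31 that covers counting error only. Which ratios could be detected at this depth was not tested. The deposited TPM of Slc16a3 scattered more than its counts, from 0.189 to 0.454 in WT31 and from 0.128 to 0.486 in WT31_P5IV.

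Slc4a2 (ENSMUSG00000028962), the anion exchanger AE2 that lets bicarbonate out in exchange for chloride, lies at chr5:24423837-24440950 on the plus strand. WT31 libraries held 97.3, 89.0, 94.6, 93.4 and 92.2 CPM. WT31_P5IV libraries held 196, 187, 198, 184 and 188 CPM. The level was about doubled in every WT31_P5IV library, with means of 93.3 ± 3.06 and 191 ± 6.05 CPM (SD, n = 5 each) and a log2 fold change of 1.03 (SE 0.04). On log2(TPM + 1) neither Slc4a2 (0.87) nor Car14 (0.83) reached a log2 fold change of 1, with the same direction. Of its 31-base words, 14.2% are shared with other genes, most often with Fastk, a mitochondrial RNA regulator gene on the other strand. Fastk rose by less, with a log2 fold change of 0.32 (SE 0.06, adjusted p = 1.74e-04, edgeR's quasi-likelihood test).

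Slc4a7 (ENSMUSG00000021733), the sodium bicarbonate cotransporter NBCn1, lies at chr14:14702279-14799940 on the plus strand. In WT31 it had 98.7, 115, 110, 92.9 and 88.5 CPM, and in WT31_P5IV 105, 118, 121, 96.9 and 110 CPM. The groups overlapped, with a log2 fold change of 0.12 (SE 0.08) that was -0.03 on log2(TPM + 0.1). Slc4a7 had no call in this fit, but was called higher with a replicate block and without WT31 replicate 2. The ratio of the exporter Slc4a2 to the importer Slc4a7 in TPM was 1.77 ± 0.197 in WT31 and 3.34 ± 0.240 in WT31_P5IV (SD, n = 5 each), without overlap.

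Per transcript length, the order of the members differed between the groups. In WT31 it ran from Car2 (123 ± 5.21 TPM) over Car14 (102 ± 3.53), Slc4a2 (38.6 ± 2.31), Slc4a7 (22.0 ± 3.27), Slc16a1 (16.5 ± 0.640) and Car13 (10.3 ± 0.739) to Slc16a3, Car9 and Car12, all under 1 TPM (SD, n = 5). Neighbours in that order were separate in range, apart from Car9 and Car12. In WT31_P5IV it ran from Car14 (183 ± 13.0 TPM) over Slc4a2 (71.4 ± 3.96), Car2 (67.7 ± 5.29), Slc16a1 (22.2 ± 1.77), Slc4a7 (21.5 ± 1.92) and Car13 (6.26 ± 0.842) to Car12, Car9 and Slc16a3 (SD, n = 5). There the ranges of Slc4a2 and Car2 overlapped, as did those of Slc16a1 and Slc4a7 and those of the 3 rare members.

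**Figure D3:**
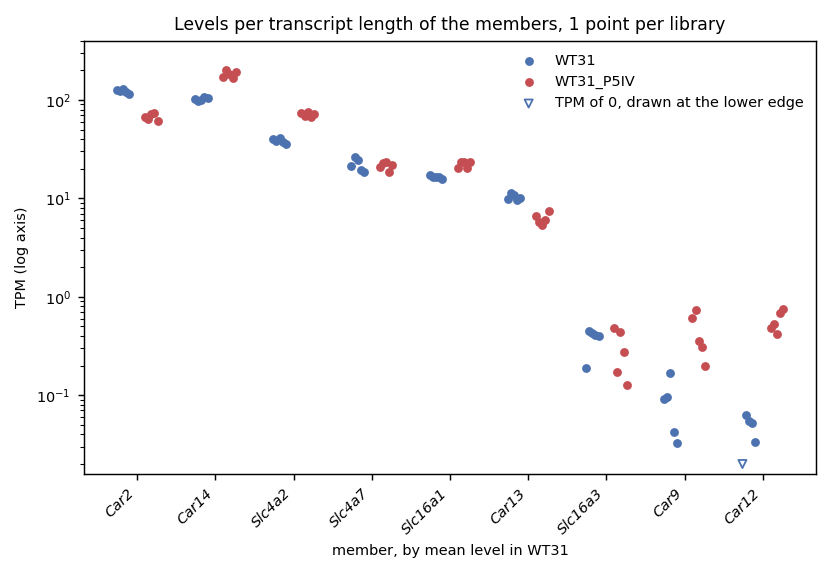
TPM of the members on a log axis, 1 point per library, ordered by the mean in WT31; the open triangle is a WT31 library in which Car12 was listed at 0. Car2 led in WT31 and Car14 in WT31_P5IV, and Slc16a3, Car9 and Car12 stayed under 1 TPM in both.

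Dividing a gene's estimated count by its TPM gives the mean effective length of the transcripts behind it, that is, their length without the part lost to the fragment size. For Car2 this was 1454 ± 16.5 bases in WT31 and 1380 ± 31.6 bases in WT31_P5IV (SD, n = 5 each), without overlap. Annotated Car2 transcripts are from 587 to 1788 bases long, and the deposited estimates thus gave shorter transcripts a larger share of Car2 in WT31_P5IV. For the other 8 members the ranges overlapped. Slc16a3 was the least settled, since its 8 annotated transcripts reach from 353 to 4335 bases and the effective length lay between 1388 and 4142 bases in WT31 and between 1299 and 4141 bases in WT31_P5IV.

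Of the 9 members, 7 matched a promoter of the RefSeq table for GRCm38.p6, and Car2 and Car13 did not. The 250 bases before the RefSeq start were searched on both strands for ACGTG and GCGTG, the core letters of the hypoxia response element. They were also searched for the E-boxes CACGTG and CATGTG, which MITF of the melanocyte lineage can bind. The windows of Slc4a7, Slc16a3 and Slc4a2 lie inside the gene spans given above, and those of Car9 and Car14 do so in part. CACGTG contains ACGTG on both strands and so counts for both strands among the core matches. These 7 genes have 8 windows, as Slc4a2 has 2. Core letters occurred in 5 of the 8 (those of Car9, Car14, Slc16a1 and Slc16a3 and 1 of Slc4a2), and in 38.6% of 32851 RefSeq windows of the same length. An E-box occurred in 1 of the 8, that of Slc16a1, and in 17.6% of all windows. The windows of Car14 and Car12, the membrane enzymes with the largest differences in TPM and in fold, and of Slc16a1, with the most matches, are shown 5′ to 3′ with the matched letters in capitals. Car14 is at chr3:95904686-95904935 on the minus strand, Car12 at chr9:66713436-66713685 and Slc16a1 at chr3:104638414-104638663, both on the plus strand.
Car14: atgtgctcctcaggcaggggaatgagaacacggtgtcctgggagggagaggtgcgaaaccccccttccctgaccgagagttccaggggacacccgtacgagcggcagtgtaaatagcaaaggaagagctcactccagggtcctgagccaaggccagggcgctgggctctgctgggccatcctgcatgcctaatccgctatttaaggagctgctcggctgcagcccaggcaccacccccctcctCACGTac
Car12: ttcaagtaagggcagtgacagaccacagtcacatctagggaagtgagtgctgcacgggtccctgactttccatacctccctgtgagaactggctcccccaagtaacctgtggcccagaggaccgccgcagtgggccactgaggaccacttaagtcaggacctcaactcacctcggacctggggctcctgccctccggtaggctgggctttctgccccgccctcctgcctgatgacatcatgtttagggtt
Slc16a1: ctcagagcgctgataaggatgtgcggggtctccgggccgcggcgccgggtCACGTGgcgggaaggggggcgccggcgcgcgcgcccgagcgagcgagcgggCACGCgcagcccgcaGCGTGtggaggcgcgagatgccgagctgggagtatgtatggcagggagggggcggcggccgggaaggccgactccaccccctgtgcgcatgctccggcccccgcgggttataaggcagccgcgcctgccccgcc
In Car14 the match ends 2 bases before the start, Car12 holds none, and in Slc16a1 the E-box lies 194 bases before the start. These matches describe letters only.

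Other genes of acid, bicarbonate and lactate handling were counted in the same fit, in which 34.6% of all tested genes were called higher and 33.9% lower. Of 11 further carbonic anhydrases, 5 were tested, 4 rose and none fell, with a median log2 fold change of 0.93 beside 0.01 over all tested genes. Car5b, a mitochondrial enzyme, rose most, from 2 to 9 counts in WT31 to 26 to 40 in WT31_P5IV (log2 fold change 2.68, SE 0.27, adjusted p = 5.75e-07, edgeR's quasi-likelihood test). Car8, a family member without catalytic activity, rose by 1.02 (SE 0.21), and Car15, a membrane-anchored enzyme, by 0.93 (SE 0.23). All 3 stayed under 3 TPM on average in both groups. Car6, the only abundant gene of the list, rose by 0.19 (SE 0.06) in CPM but not on the TPM scale, where its means were 58.8 and 56.7. Car11, also without catalytic activity, differed by -0.24 (SE 0.16) without a call.

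Of 16 further monocarboxylate transporters and their chaperones, 10 were tested, with 4 higher and 4 lower (34.6% and 33.9% of all tested genes). Their median log2 fold change was 0.23. Embigin (Emb) and basigin (Bsg) are the chaperones that bring these transporters to the membrane. Emb fell from 110 to 146 counts per library in WT31 to 0 to 2 in WT31_P5IV, at least 38.6-fold lower (adjusted p = 5.21e-11, edgeR's quasi-likelihood test). Bsg, by far the more abundant, rose by 0.49 (SE 0.05), from 747 to 926 TPM. The ratio of Bsg to Slc16a1 in TPM overlapped between the groups, at 45.3 ± 3.43 and 42.0 ± 2.19 (SD, n = 5 each).

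Slc16a7 (MCT2), a high-affinity lactate transporter, rose by 1.42 (SE 0.09), more than Slc16a1. The ratio of Slc16a1 to Slc16a7 in TPM was 5.60 ± 0.788 in WT31 and 2.76 ± 0.564 in WT31_P5IV (SD, n = 5 each), without overlap. Slc16a9, known for carnitine transport and low in both groups, fell from 20 to 41 counts in WT31 to 3 to 10 in WT31_P5IV (log2 fold change -1.99, SE 0.28). Slc16a6 differed by 0.15 (SE 0.06) without a call in this fit.

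Of 18 further bicarbonate and anion transporters, 9 were tested, of which 7 rose and 2 fell (34.6% and 33.9% of all tested genes). The median log2 fold change was 0.78. Slc26a7, an anion transporter gene and the most abundant of them in WT31, fell from 38.6 to 12.1 TPM, with a log2 fold change of -1.53 (SE 0.06, adjusted p = 2.27e-11, edgeR's quasi-likelihood test). Slc26a11 rose by 2.48 (SE 0.11) and Slc4a3 (AE3), a relative of Slc4a2, by 1.20 (SE 0.08). Slc26a6, an exchanger of chloride for bicarbonate, rose by 0.78 (SE 0.07). Slc4a5 was counted 1 to 3 times in WT31 and 19 to 33 times in WT31_P5IV. Against the limit of 3 counts it was at least 9.78-fold higher, counting error left out. Although most of the tested genes rose, the summed TPM of the list was lower in WT31_P5IV, 60.4 against 74.9.

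Of the sodium-proton exchangers and the proton channel, 13 genes in all, 5 were tested and all 5 rose, where 34.6% of all tested genes did. The median log2 fold change was 0.63. Slc9a5 rose by 1.48 (SE 0.06, adjusted p = 7.68e-11, edgeR's quasi-likelihood test), Slc9a8 of the Golgi by 1.01 (SE 0.04) and the proton channel gene Hvcn1 by 0.63 (SE 0.05). Among 9 acid-sensing receptors and channels only Asic1 was tested, and it rose by 0.53 (SE 0.05), while Asic3 had at most 12 counts and was not tested.

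Of 18 genes of lactate and pyruvate handling, 16 were tested, with 3 higher and 11 lower (34.6% and 33.9% of all tested genes). The median log2 fold change was -0.24. Me1, which makes pyruvate from malate, fell by 1.00 (SE 0.03, adjusted p = 2.37e-12, edgeR's quasi-likelihood test), and the alanine transaminase gene Gpt2 fell by 0.76 (SE 0.04). Pdp2, a pyruvate dehydrogenase phosphatase gene, fell by 0.63 (SE 0.06), and Pkm, the pyruvate kinase gene, fell by 0.33 (SE 0.04). Pcx, which makes oxaloacetate from pyruvate, rose by 0.84 (SE 0.06). Ldha, which makes lactate, differed by -0.09 (SE 0.05) without a call, and was called lower when TPM were compared. On log2(TPM + 1) the list held 1 higher and 12 lower genes.

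The 20 hypoxia factors and targets were all tested, with 7 higher and 6 lower (34.6% and 33.9% of all tested genes). The median log2 fold change was 0.07. On log2(TPM + 1) 4 were higher and 9 lower. The factor genes Hif1a (-0.45, SE 0.04) and Epas1 (-1.29, SE 0.05) fell (adjusted p = 4.54e-07 and 3.21e-11, edgeR's quasi-likelihood test). Among targets, the glucose transporter Slc2a1 rose by 1.01 (SE 0.06) and P4ha2 by 0.91 (SE 0.11), while Ndrg1 fell by 0.81 (SE 0.08) and Pgk1 by 0.28 (SE 0.04). Divided after the values were seen, the list holds 8 factors and regulators, of which none was higher and 4 were lower, and 12 targets, of which 7 were higher and 2 lower. On log2(TPM + 1) 4 of the 12 targets were higher and 4 lower.

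**Figure D4:**
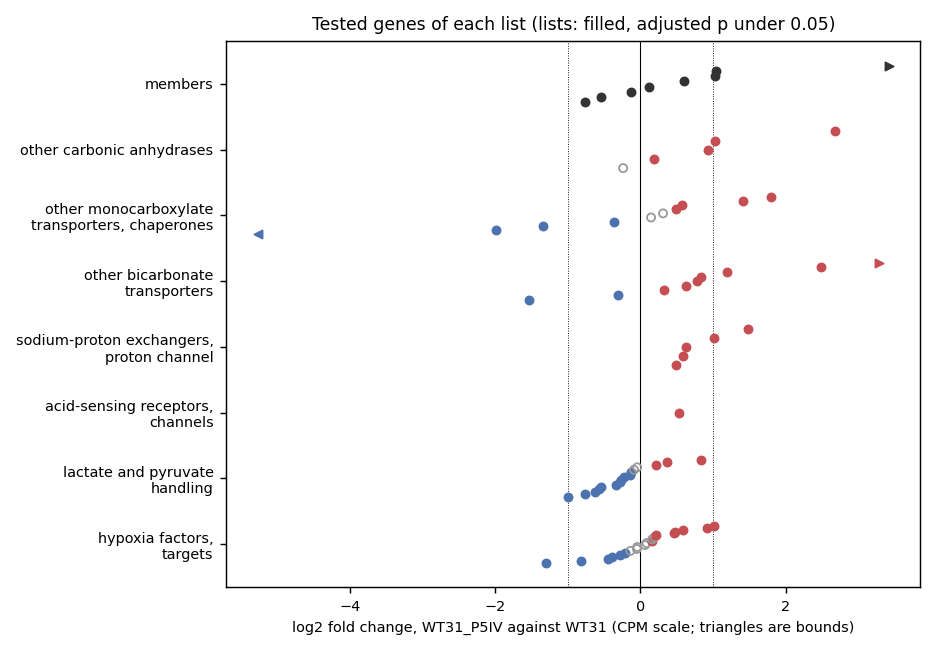
Log2 fold change of WT31_P5IV against WT31 for the tested members (black) and for the tested genes of 7 lists (red higher, blue lower, open without a call); triangles are lower bounds and dotted lines mark a log2 fold change of 1. The 5 tested sodium-proton exchangers and proton channel genes were all higher, and 11 of 16 genes of lactate and pyruvate handling were lower. Of all tested genes 34.6% were called higher and 33.9% lower.

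Of the 9 members, 4 lie on chromosome 3 (Car2, Car13, Car14 and Slc16a1). Around Car2, 3 of the 20 nearest tested genes rose and 12 fell, the member Car13 among the latter. Their median log2 fold change was -0.23, and the farthest was 6148795 bases away. Around Car13, whose neighbours are largely the same genes, 3 rose and 13 fell, the member Car2 among the latter (median -0.25). On the whole chromosome 30.7% rose and 38.2% fell. The flanking genes of the pair, 1810022K09Rik before Car13 (-0.26, SE 0.05) and Ythdf3 after Car2 (-0.24, SE 0.05), fell by less than either member. Around Car14 7 neighbours rose and 4 fell, and its neighbour Anp32e fell (-0.26, SE 0.04). Around Slc16a1 5 rose and 7 fell, with Lrig2 higher (0.77, SE 0.08) and Rhoc without a call (0.03, SE 0.05) but called lower on the TPM scales.

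Around Slc4a2 10 neighbours rose and 5 fell (36.0% and 31.5% on chromosome 5), among them Cdk5, whose end is 307 bases before Slc4a2 (0.60, SE 0.05). Around Car12 6 rose and 11 fell (34.1% and 32.6% on chromosome 9), and neither Usp3 (-0.22, SE 0.04) nor Aph1b (-0.06, SE 0.06, no call) was higher. Around Car9 13 rose and 6 fell (33.5% and 34.9% on chromosome 4), with Arhgef39 on one side higher (1.11, SE 0.06) and Tln1 on the other lower (-0.23, SE 0.04). Around Slc16a3 10 rose and 5 fell (34.2% and 34.5% on chromosome 11), with Ccdc57 higher (0.36, SE 0.13) and Gm28192 without a call (0.42, SE 0.27). Around Slc4a7 4 rose and 9 fell (31.7% and 39.9% on chromosome 14), and its neighbours Gm47654 (-0.14, SE 0.25) and Nek10 (0.20, SE 0.13) were not called.

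**Figure D5:**
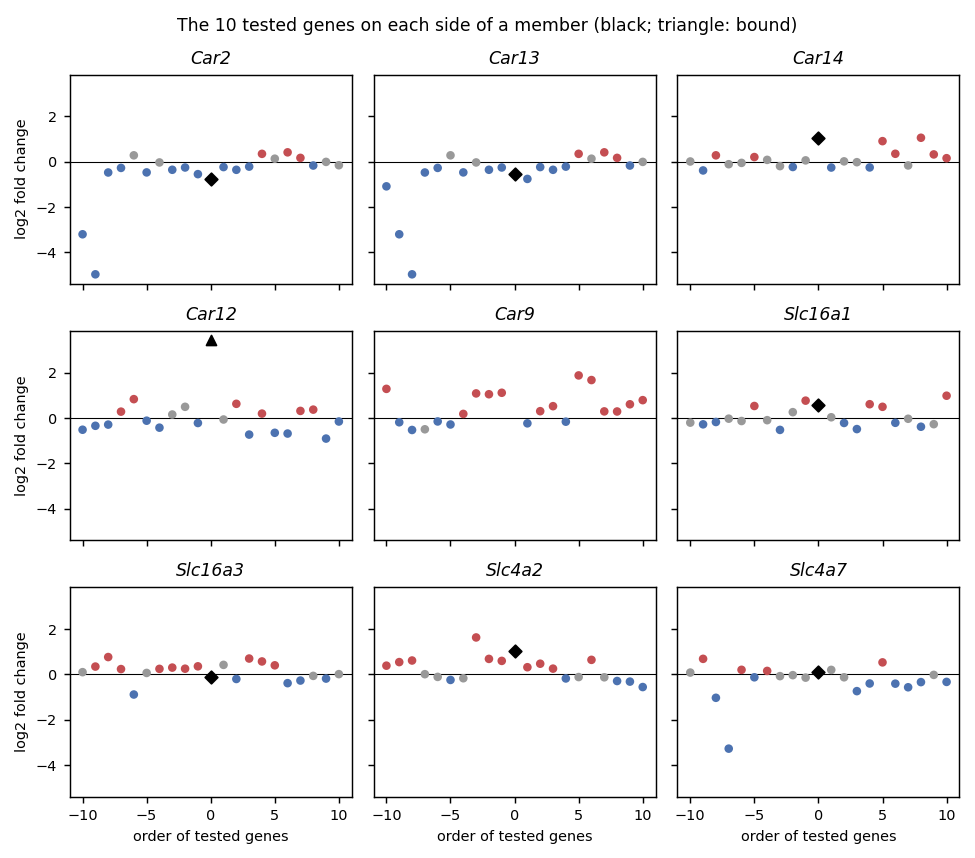
Fitted log2 fold change of the 10 tested genes on each side of a member, by their order on the chromosome (red higher, blue lower, grey without a call), with the member in black and Car12 at its bound; Car9 was not tested and has no symbol. The neighbours of Car2 and Car13 were mostly lower, 12 and 13 of 20, largely the same genes, with the other member of the pair in each count. Of the neighbours of Car12, 6 were higher and 11 lower.

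The genes closest in pattern were found by the root mean square difference of centred log2 CPM over the 10 libraries. For Car14 they were Cd9 (0.0409), Rpn1 (0.0465) and Ifi30 (0.0498). For Slc4a2 they were Abcb6 (0.0520), Bcan (0.0564) and Def6 (0.0564). For Car12 the likeness was weaker, with Gbgt1 (0.247), Hmx2 (0.270) and Tmem59l (0.289). All 10 libraries fall into 2 groups, so this likeness rests mainly on a similar difference between the groups.

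Libraries held between 24255389 and 25750639 estimated counts, and 3 counts, the limit of detection, correspond to 0.114 to 0.129 CPM. All 7 melanocyte markers (Mitf, Sox10, Mlana, Pmel, Tyr, Tyrp1 and Dct) were above 1 TPM in every library, with a summed level of 14382 to 15223 TPM in WT31 and 16077 to 17919 TPM in WT31_P5IV. Single markers moved in both directions, with Pmel (1437 and 2965 TPM) and Dct (4826 and 7298 TPM) called higher and Tyrp1 (2197 and 1003 TPM) called lower. Tyr had 1544 and 1702 TPM and Sox10 509 and 410 TPM, and their calls changed with the scaling, as did that of Mlana, which was called lower on the TPM scales alone. Of 6 macrophage and leukocyte markers, Cd68 and Lyz2 were above 1 TPM, of which Cd68 rose and Lyz2 fell in WT31_P5IV, while Ptprc, Adgre1 and Itgam had at most 3 counts. The summed level of that list was 7.30 to 9.56 TPM in WT31 and 7.47 to 11.4 TPM in WT31_P5IV. Markers of hepatocytes, endothelial cells, stellate cells and fibroblasts, and erythroid cells summed to at most 1.64 TPM per list in any library. Among them Acta2 (2 to 12 counts in WT31 and 15 to 21 in WT31_P5IV) and Col1a1 (18 to 28 and 33 to 48 counts) rose, both stellate cell and fibroblast markers and named after their values were seen. Of 6 hepatocyte markers 5 were found in the data. Of these, Alb and Apoa1 had 0 counts in WT31 and at most 9 and 4 in a WT31_P5IV library, and neither was tested. Ttr had 6 to 14 counts in WT31 and 8 to 15 in WT31_P5IV, without a call. These were also named after their values were seen. The part of any of the markers in the members' differences was not tested.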

How the data were processed

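RNA of cultured WT31 and WT31_P5IV cells was sequenced, 5 libraries each. Per the methods and processing notes, the authors trimmed reads with Trim Galore (version 0.6.4), quantified transcripts of GRCm38.p6 with kallisto, and deposited estimated counts and TPM summed per gene. The sources differ on kallisto's version, and the annotation release and the use of strand are not given in the sources used here. Symbols and positions came from GENCODE M21, which holds 55144 of 55385 identifiers.

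Estimated counts were rounded, filtered with filterByExpr and scaled by TMM. With R 4.3.3, edgeR 4.0.16 (glmQLFit, glmQLFTest) compared the groups, and p-values of 13620 genes were adjusted after Benjamini and Hochberg. P-values measure only the spread between these cultures. Fits were tested on simulated counts with 200 changed genes, of which 186 to 193 were found, with 16 to 24 false calls. The TPM fit was tried there on log2 CPM only. With so few changed genes, the simulation cannot judge the scaling in these data, where 68.5% of tested genes were called. Folds against a group with at most 3 counts in every library are bounds set by that limit, and they leave out counting error. TPM from the authors served for levels between genes and for effective lengths, in which at least 94% of single-transcript genes lay within 2% of a straight line.

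Members and lists were chosen with earlier results of these data known. Named genes are the members, in each list the 4 called genes with the largest change and the 2 with the highest TPM, the 3 genes most like each of 3 members, the nearest tested neighbours, and markers above 1 TPM. Alternatives were DESeq2 1.42.0, limma 3.58.1 (voom with and without TMM, log2(TPM + 0.1) and log2(TPM + 1)), upper-quartile scaling, 2 other filters, a replicate block, a log2 fold change of 2, and leaving out each library. Some genes that the rule names are not reported here.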

Additional observations from a re-analysis of the deposited data

Results flagged for a closer look

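Of 160 sets of 5 libraries, 3 held a library that stood apart by Dixon's criterion, which chance passes in about 1 of 20, and no member's CPM was among them. The TPM ratio of Slc16a1 to Slc16a3 was 92.58 in WT31 replicate 1, where the next library had 40.3, and there the deposited estimates gave the 13 counts of Slc16a3 an effective length of 4142 bases. Aph1a, which overlaps Car14, was lowest in WT31_P5IV replicate 3 with 149.8 CPM against 158.4 in the next library. Ccdc57, beside Slc16a3, was lowest in WT31_P5IV replicate 2 with 3.346 CPM against 4.843.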

How the results depend on the processing

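Because this contrast chose the members, their calls under the alternatives are a description and no support for their differences. Car2, Car13, Car14, Slc16a1 and Slc4a2 had the same direction and call in each setting run, and Car12 did so except under the filter of 10 counts in every library, which removed it. The log2 difference of Car14 minus that of Car2 stayed between 1.68 and 1.85. Of 3 members past a log2 fold change of 1, 1 remained on log2(TPM + 0.1), 0 on log2(TPM + 1), 1 with voom without scaling and 1 at a threshold of 2. The 1240 tested genes past it became 698 with at least 10 counts in every library, 465 on log2(TPM + 1), 2319 with no filter beyond 1 count and 314 at a threshold of 2. Of 8 called monocarboxylate transporters and chaperones, 5 remained with at least 10 counts. In that list 5 genes rather than 4 were called higher with a replicate block, with upper-quartile scaling and without WT31_P5IV replicate 5. Car6 (-0.0525 and -0.0517), Mlana (-0.16) and Rhoc (-0.14) turned negative on both TPM scales, where Mlana and Rhoc were called lower, as did the uncalled Slc4a7 (-0.0298 on log2(TPM + 0.1)) and Aph1a (-0.1099). The uncalled Mitf and Gm47654 also changed sign in some settings. Without a filter Car9 was also called. Leaving out each library gave 6 to 7 called members (7 without WT31 replicate 2, with Slc4a7) and 2 to 3 past the fold threshold. It was 2 without WT31 replicate 2 or WT31_P5IV replicate 2, where Car14 fell just under 1.

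Replicate numbers are those of the sample titles, from which the numbers in the WT31 file labels differ, and the block with the latter was not run. Same-numbered libraries did not pair, with correlations from -0.0960 to 0.178 and 2 of 5 closest to their own number. A replicate block called 9380 genes against 9327, 1253 of them past the fold threshold, and 7 members, with Slc4a7 added.

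Car12, Car9 and Slc16a3 are limited by depth, with at most 35 counts per library, and intervals cover counting error only. The other 6 members had at least 210 counts in every library.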
